A study of Homo sapiens with 16 samples.

Results

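Abundant structural and nuclear noncoding RNAs were followed across planar cultures of stem cell-derived islets treated with 7 compounds or the solvent DMSO. The 8 genes were MALAT1, NEAT1, RN7SL1, RN7SL2, RN7SL3, RN7SK, RMRP and RPPH1, taken by symbol from a count table of 62754 genes, in which each symbol had 1 row. The list was drawn up with earlier results of these libraries known, and which values weighed in it is not recorded, but no level or change was used as a threshold. Of the 8, 5 had reads in all 16 libraries, and RN7SL2, RN7SK and RPPH1 had 0 reads in every library. The cultures came from HUES08 (HUES8), an established line of human embryonic stem cells, of WT genotype, and all libraries carried the batch label 1. Compounds were given in the medium from stage 5 until 7 days into stage 6 of the differentiation. There were 2 libraries each of colchicine at 10 nM, epirizole at 2.5 uM, Ly-294002 at 120 nM, moxifloxacin at 1.1 uM, rottlerin at 1.23 uM, vardenafil at 125 nM and rimonabant at 125 nM, and 2 of DMSO. The 7 comparisons with DMSO share the same 2 DMSO libraries, all groups share 1 cell line, and separate cultures are not stated for the libraries of a group, so the p-values may measure technical spread.

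Several of these RNAs are the core of an RNA-protein machine. RN7SL1, RN7SL2 and RN7SL3 encode copies of 7SL RNA, the scaffold of the signal recognition particle, which brings ribosomes making secreted proteins, such as hormones of endocrine cells, to the endoplasmic reticulum. RN7SK RNA holds the transcription elongation factor P-TEFb inactive, RMRP is the RNA of the endonuclease RNase MRP, which acts on ribosomal RNA precursors, and RPPH1 is the RNA of RNase P, which trims transfer RNA precursors. RNA polymerase III makes all of these, while RNA polymerase II makes MALAT1, a long RNA of nuclear speckles, and NEAT1, the scaffold of paraspeckles. The library kit removed ribosomal RNA and did not select poly(A) tails, so RNAs without a tail could be counted.

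Library totals ran from 23294377 to 30701868 reads, so that 3 reads, the floor under which a count cannot be distinguished from 0, were worth 0.0977 to 0.129 CPM (reads scaled to a library total of 1e6). This floor covers counting error only. Islet hormones were scarce for cultures labelled as islets, with insulin (INS) at 0.643 to 6.37 CPM and the islet amyloid peptide IAPP at no more than 1 read in a library. In these bulk samples, fewer cells of a type and less RNA per cell cannot be told apart. DMSO libraries stood at an edge of several library measures. The GC slope, the mean log2 level of the most GC-rich genes minus that of the least GC-rich, in 5 equal classes by GC content, relative to the mean of all libraries, was -0.20 to 0.70 in the compound libraries and -0.28 and -0.36 in the DMSO libraries, and it was highest in Rimonabant 2. Mitochondrial transcripts took 1.43% to 2.52% of the reads in compound libraries and 2.66% and 2.84% in DMSO libraries.

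The 3 7SL genes lie on chromosome 14 of GRCh38, each as a single exon in GENCODE 29, and are near copies of each other, which decides how far their counts can be told apart. RN7SL2 is 98.3% identical to RN7SL1 and RN7SL3 is 97.7% identical to it, while RN7SL2 and RN7SL3 are 96% identical. Of the 150-base stretches of RN7SL1, 37.3% also occur in another of the 3 genes, against 37.1% for RN7SL2 and 0% for RN7SL3. Shorter stretches are shared more, RN7SL3 included. In the same order the shares were 53%, 52.7% and 12% for 100 bases, and 67.2%, 62.9% and 34.4% for 50 bases. A read from a shared stretch fits more than 1 gene. How the authors treated such reads is not given in the sources used here, so the split of counts between these genes is uncertain.

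The 3 genes without reads differ in their surroundings. RN7SK (chr6:52995621-52995948, plus strand, 328 bases) lies wholly within an exon of a second gene model of the same RNA in GENCODE 29, ENSG00000202198, which also had 0 reads. RPPH1 (chr14:20343075-20343407, minus strand, 333 bases) lies wholly within an exon of ENSG00000259001 on the same strand, a gene with 0 to 3 reads. RN7SL2 lies within the span of ENSG00000282885, which had 43 to 89 reads, but not within its exons in that release. Of 553 small noncoding genes (up to 400 bases) that lie wholly inside an exon of another counted gene on the same strand, 552, or 99.8%, had 0 reads in all libraries. Of 6268 small noncoding genes inside no such exon on either strand, 48.5% had 0 reads, and so had 49% of 208 that lie in an exon on the other strand only. The values of 0 for RN7SK, RPPH1 and RN7SL2 are given as listed, and not as absence of the RNA. RN7SL2 lies inside no such exon, so the share of nested genes with 0 reads does not bear on it. Why these 3 genes had 0 reads was not tested. Small genes inside MALAT1 and NEAT1 on their strand, MIR612 among them, had 0 reads as well. RN7SL1 lies within the span of RPS29, a ribosomal protein gene on the other strand with 2146 to 4552 reads. In GENCODE 29, ENSG00000283029 covers the whole of RN7SL1 and ENSG00000269900 the whole of RMRP on the same strand. Neither is among the counted genes. Which annotation release the authors counted on is not given in the sources used here.

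Copies of 7SK and 7SL elsewhere in the genome did collect reads. Of 293 rows named as 7SK pseudogenes, 144 had a read, and RN7SKP80 on chromosome 22 held 124358 of their 179658 reads. RN7SKP80 is 82.4% identical to RN7SK over the aligned length, with 47 bases of RN7SK missing from it, and lay at 194 to 362 CPM over all libraries, with 359 and 336 CPM in DMSO. Among 677 rows named as 7SL pseudogenes, 366 had a read, and the highest, RN7SL5P and RN7SL4P, lay at 51.0 to 83.3 and 35.4 to 56.7 CPM. Whether any of these reads came from the genes proper was not tested.

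The detected RNAs stood among the most abundant transcripts of the cultures, and together they took 4.31% to 5.24% of the reads. MALAT1 (ENSG00000251562, chr11:65497688-65506516, plus strand) had the most reads of all genes in each of the 16 libraries, at 27996 to 40430 CPM with a median of 35033 CPM. RN7SL1 (ENSG00000276168) ranked between 2 and 8, with 3667 to 10748 CPM and a median of 8666 CPM. NEAT1 (ENSG00000245532, chr11:65422774-65445540, plus strand), the neighbour of MALAT1, ranked between 4 and 8, at 4315 to 6093 CPM. The order differed once gene length was counted. RN7SL1 was highest per length at a median of 28982 CPM per kilobase, RMRP (ENSG00000277027, chr9:35657754-35658017, minus strand) followed at 4476 and MALAT1 at 3968 CPM per kilobase. RN7SL3 (ENSG00000278771) had a median of 1032 CPM per kilobase and NEAT1 of 220.0 CPM per kilobase over the whole of its 22767-base exon, from which a shorter and a longer form are made. The ranges of RMRP and MALAT1 per kilobase overlapped, at 2697 to 5393 and 3171 to 4579 CPM per kilobase, while RN7SL1, RN7SL3 and NEAT1 overlapped with no other of the 5.

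**Figure D1:**
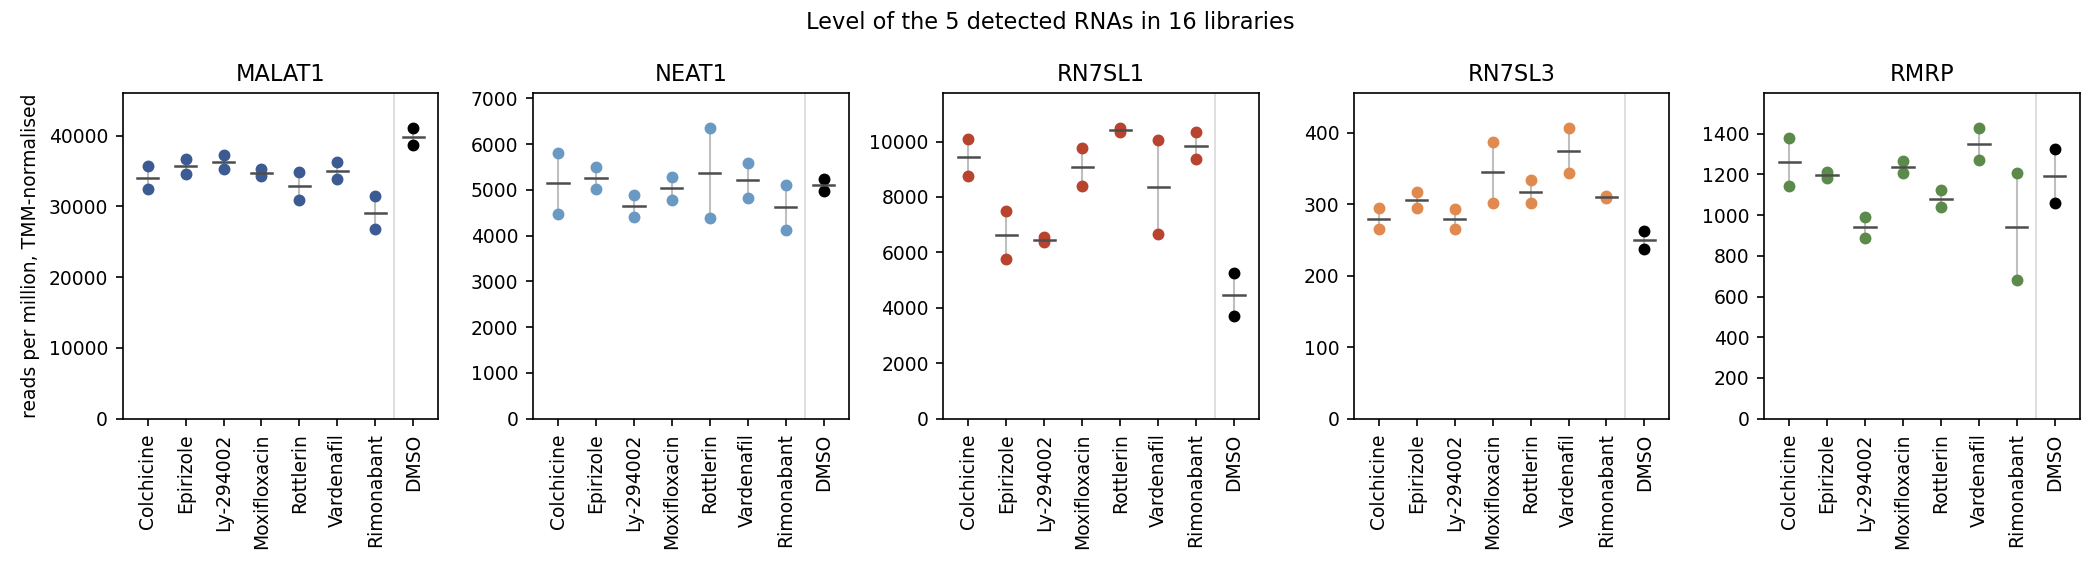
TMM-normalised CPM (y axis, from 0, a scale of its own for each RNA) of the 5 detected RNAs in each library, by group; points are libraries, bars are group means of 2, and DMSO is in black. The 14 compound libraries lie above both DMSO libraries for RN7SL1 and RN7SL3 and below them for MALAT1, and overlap with them for NEAT1 and RMRP.

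RN7SL1 varied most among the 5 RNAs, 2.93-fold between its lowest and its highest library in CPM. On the TMM-normalised CPM scale, which corrects library totals for composition, it had 10089 and 8773 in colchicine, 7485 and 5745 in epirizole, 6569 and 6358 in Ly-294002, 9769 and 8382 in moxifloxacin, 10476 and 10339 in rottlerin, 10044 and 6661 in vardenafil, and 10335 and 9363 in rimonabant, against 5239.8 and 3722 in DMSO. All 14 compound libraries lay above both DMSO libraries, as they did for 3.54% of the 24515 tested genes. In single comparisons both libraries of a compound lay above both DMSO libraries for 24.5% of tested genes in colchicine, 19% in epirizole, 19.5% in Ly-294002, 23.2% in moxifloxacin, 23.6% in rottlerin, 19.4% in vardenafil and 26.8% in rimonabant. By group mean the order from high to low was rottlerin, rimonabant, colchicine, moxifloxacin, vardenafil, epirizole, Ly-294002 and DMSO. Only rottlerin and rimonabant at the top, and Ly-294002 and DMSO at the bottom, were neighbours whose libraries did not overlap. The 2 DMSO libraries differed 1.41-fold from each other and the 2 vardenafil libraries 1.51-fold, a wider spread than in any other group.

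RN7SL1 rose with rimonabant, to a mean of 9849 ± 687 CPM, against 4481 ± 1073 CPM in DMSO (SD, n = 2 each, TMM-normalised). The log2 change was 1.14 ± 0.20 (SE; 95% interval 0.70 to 1.57), with an adjusted p of 0.0133 in edgeR's quasi-likelihood test with Benjamini-Hochberg adjustment over all genes. MALAT1 was the other of the 5 tested RNAs called in rimonabant, in which 7.8% of all tested genes were called. The call on RN7SL1 held without Rimonabant 1 (adjusted p = 0.0207, edgeR), and it was lost without DMSO 1 (1.40, adjusted p = 0.0549), DMSO 2 (0.92, 0.159) or Rimonabant 2 (0.171). It was also lost with an offset for GC content and length, with which the change was 0.65 (adjusted p = 0.42, edgeR).

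In the other comparisons the change of RN7SL1 did not pass this test. It was 1.22 ± 0.20 in rottlerin (adjusted p = 0.0591, edgeR), 1.07 ± 0.20 in colchicine (0.0508), 1.02 ± 0.20 in moxifloxacin (0.294), 0.90 ± 0.20 in vardenafil (0.890), 0.56 ± 0.20 in epirizole (0.901) and 0.53 ± 0.20 in Ly-294002 (0.969). None of the 5 RNAs was called in these 6 comparisons, in which 0.00816% of all tested genes were called for rottlerin, 0.196% for colchicine (0.126% higher and 0.0693% lower) and 0% each for moxifloxacin, vardenafil, epirizole and Ly-294002. At an unadjusted p under 0.05 the counts of the 5 RNAs were 3 in rottlerin, 2 each in colchicine, moxifloxacin, vardenafil and epirizole, and 1 in Ly-294002. Of all tested genes, 14.8% had such a p in rottlerin, 17.5% in colchicine, 11.9% in moxifloxacin, 5.22% in vardenafil, 5.26% in epirizole and 4.69% in Ly-294002. Since the adjustment runs over all genes of a comparison, changes of like size carried different adjusted p-values, as 1.14 in rimonabant and 1.02 in moxifloxacin show. The joint test of the 7 compounds gave RN7SL1 an adjusted p of 0.151 (edgeR), and 0.00408% of all genes passed it. By DESeq2 in place of edgeR, RN7SL1 passed in 5 comparisons, those with colchicine, moxifloxacin, rottlerin, vardenafil and rimonabant. DESeq2 also called more of all genes than edgeR in colchicine, moxifloxacin, rottlerin and vardenafil, by counts given below with the other alternatives. Its count of all genes in rimonabant is not given.

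RN7SL3 lay 15.6- to 34.8-fold below RN7SL1 in read count and followed it only in part. It had 294 and 265 TMM-normalised CPM in colchicine, 295 and 317 in epirizole, 265 and 293 in Ly-294002, 387 and 302 in moxifloxacin, 301 and 334 in rottlerin, 406 and 344 in vardenafil, and 311 and 309 in rimonabant, against 262 and 238 in DMSO. Its 14 compound libraries also lay above both DMSO libraries, as for 3.54% of the tested genes, in colchicine and Ly-294002 by a narrow gap. Its log2 changes were 0.16 ± 0.12 in colchicine and Ly-294002, 0.29 ± 0.12 in epirizole, 0.31 ± 0.12 in rimonabant, 0.35 ± 0.12 in rottlerin, 0.46 ± 0.12 in moxifloxacin and 0.59 ± 0.12 in vardenafil, and none passed (lowest adjusted p 0.111 in rimonabant, edgeR). Thus vardenafil was highest for RN7SL3 and rottlerin for RN7SL1. The ratio of RN7SL1 to RN7SL3 reads was 18.1 to 34.8 in compound libraries and 20.0 and 15.6 in DMSO libraries, which overlapped. Its lowest value among the compounds was in Epirizole 2 and its highest in Rottlerin 1.

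By group mean MALAT1 had the reverse order of groups to RN7SL1, except that rimonabant and not rottlerin stood farthest from DMSO. It had 35649 and 32505 TMM-normalised CPM in colchicine, 34534.5 and 36760.2 in epirizole, 35223 and 37232 in Ly-294002, 35274 and 34292 in moxifloxacin, 30933 and 34886 in rottlerin, 33891 and 36254 in vardenafil, and 31410.5 and 26775 in rimonabant, against 38658 and 41032 in DMSO. All 14 compound libraries lay below both DMSO libraries, as for 3.59% of the tested genes. In single comparisons both libraries of a compound lay below both DMSO libraries for 25.8% of tested genes in colchicine, 19% in epirizole, 19.5% in Ly-294002, 24.4% in moxifloxacin, 24.4% in rottlerin, 20% in vardenafil and 26.4% in rimonabant. MALAT1 fell by 0.45 ± 0.10 on the log2 scale in rimonabant (95% interval -0.67 to -0.24, adjusted p = 0.0193, edgeR). This call held without Rimonabant 1 (-0.57, adjusted p = 0.00494) and was lost without DMSO 1 (-0.50, 0.0758), DMSO 2 (-0.40, 0.194) or Rimonabant 2 (-0.35, 0.244). It was also lost with the GC and length offset (-0.22, adjusted p = 0.459, edgeR) and in a fit of rimonabant and DMSO alone (-0.45, 0.0997). The other changes were -0.28 in rottlerin, -0.23 in colchicine, -0.20 in moxifloxacin, -0.18 in vardenafil, -0.16 in epirizole and -0.14 in Ly-294002, each with an SE of 0.10, and did not pass (adjusted p 0.211 to 0.969, edgeR). TALAM1, transcribed from the strand opposite MALAT1, lay at 30.4 to 76.7 CPM and did not pass in any comparison. The strand setting of the counting is not given, so its reads and those of MALAT1 may not be separate.

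NEAT1 and RMRP overlapped with DMSO in most comparisons, and neither was called in any. NEAT1 ran from 4127 TMM-normalised CPM in Rimonabant 2 to 6347 in Rottlerin 2, with 4983 and 5231 in DMSO. Its log2 changes lay between -0.14 in rimonabant and 0.07 in rottlerin, each with an SE of 0.17, and their 95% intervals together reached from -0.51 to 0.43. Ly-294002, at 4418 and 4882, was the one compound whose NEAT1 libraries did not overlap with DMSO, and both lay below, as for 19.5% of all tested genes in that comparison. RMRP had 991 and 888 TMM-normalised CPM in Ly-294002, 1206 and 681 in rimonabant and 1270.2 and 1426 in vardenafil, against 1323 and 1058 in DMSO. Its log2 change was -0.34 ± 0.21 in both Ly-294002 (adjusted p = 0.969, edgeR) and rimonabant (0.367). In rimonabant that value came from 1 library: it was -0.80 without Rimonabant 1 (adjusted p = 0.00271, edgeR) and 0.02 without Rimonabant 2 (0.982). The 95% intervals of RMRP in the other 5 comparisons reached from -0.60 to 0.64.

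**Figure D2:**
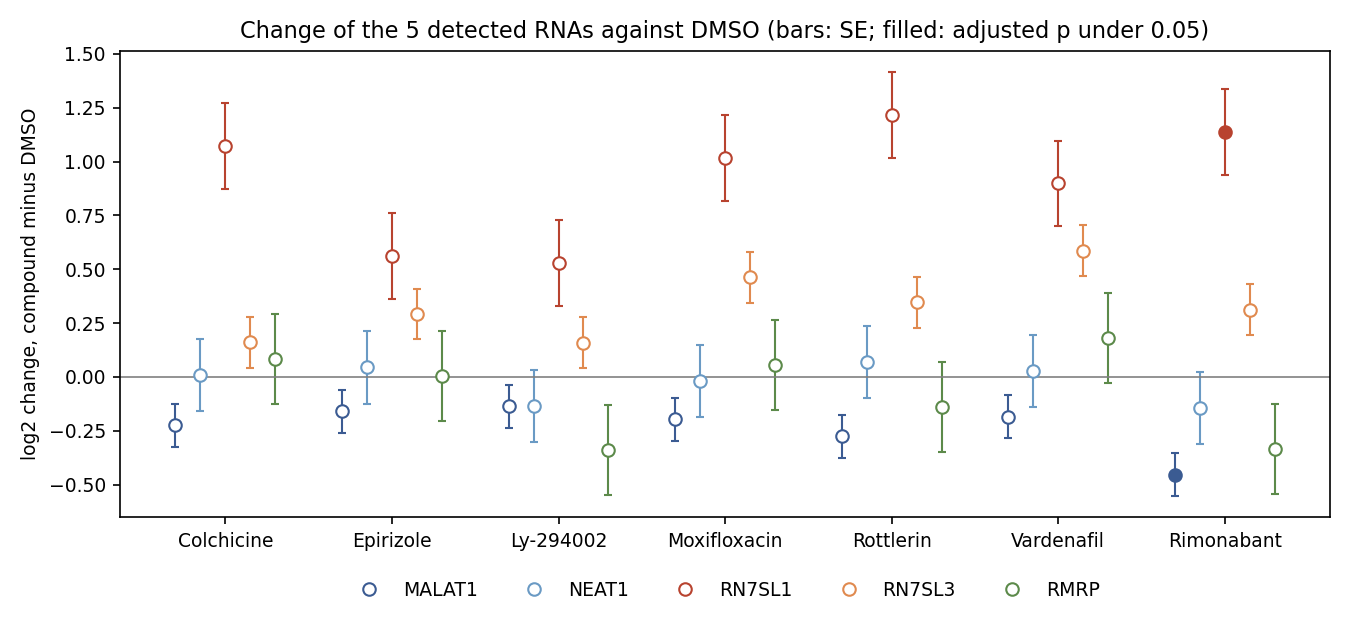
Log2 change of the 5 detected RNAs in each compound against DMSO (y axis), with bars of 1 SE from the edgeR fit of all 16 libraries; filled points passed an adjusted p of 0.05. RN7SL1 lies between 0.53 and 1.22 in all 7 comparisons and MALAT1 between -0.45 and -0.14, and both passed in rimonabant alone.

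GC content and length set these RNAs apart from most genes. GC content was 62.9% for RN7SL1, 62.2% for RN7SL3 and 63.3% for RMRP, each under 400 bases long, and 40.3% for MALAT1 and 44.1% for NEAT1. With an offset for a smooth trend in GC content and length fitted in each library, available for 95.3% of the tested genes, RN7SL1 stayed above 0 in all 7 comparisons. Its changes were then 0.85 in colchicine, 0.37 in epirizole, 0.37 in Ly-294002, 0.77 in moxifloxacin, 0.95 in rottlerin, 0.68 in vardenafil and 0.65 in rimonabant, and none passed (adjusted p 0.42 in rimonabant, edgeR). Of all tested genes, 16.7% had 7 changes above 0 with this offset. MALAT1 kept 7 changes below 0, as did 12.9% of all genes, but they shrank to -0.22 in rimonabant (adjusted p = 0.459, edgeR) and to between -0.11 and -0.04 in the other 6. RN7SL3 had 5 changes above 0, between 0.00 in Ly-294002 and 0.39 in vardenafil, and -0.05 in colchicine and -0.16 in rimonabant. RMRP was below 0 in all 7, between -0.79 in rimonabant and -0.03 in vardenafil. The offset left 0 genes called in rimonabant (edgeR).

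**Figure D3:**
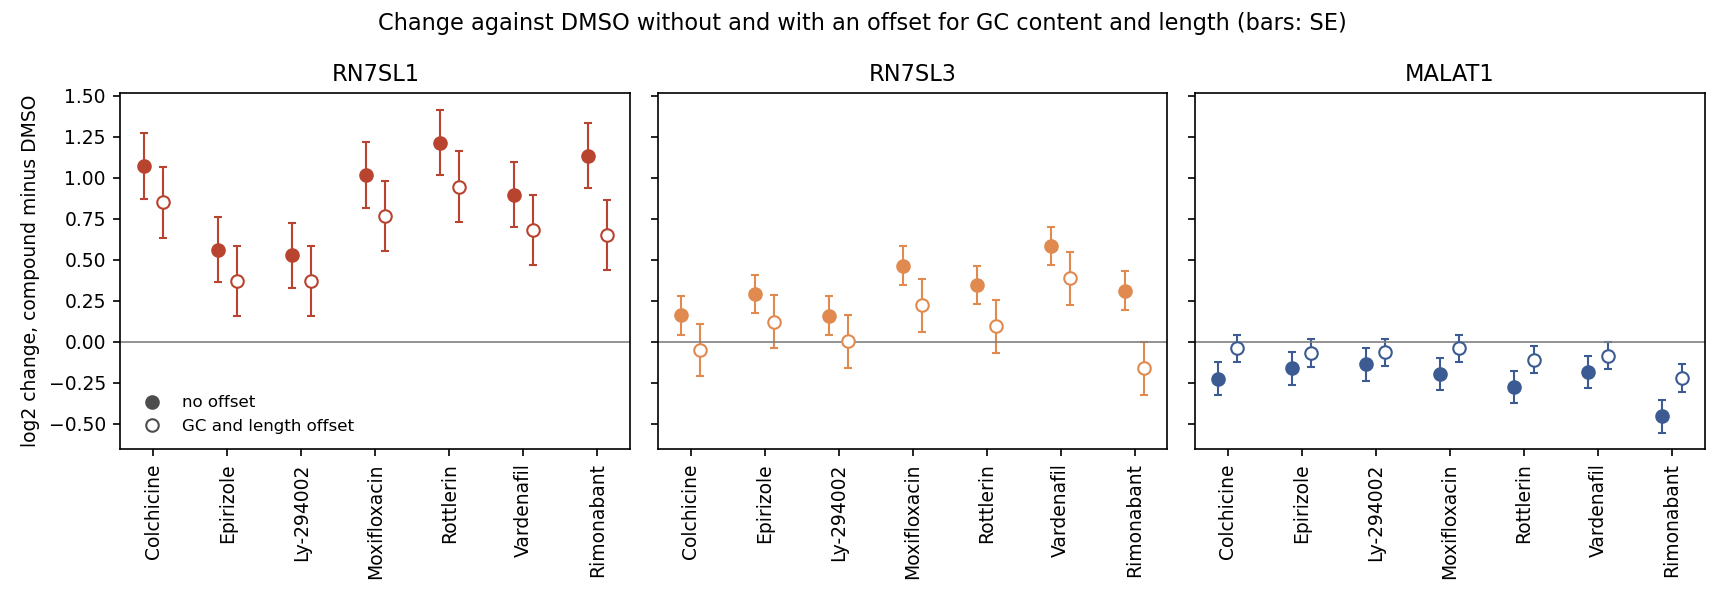
Log2 change against DMSO (y axis, bars of 1 SE) of RN7SL1, RN7SL3 and MALAT1 for each compound, without (filled) and with (open) an offset for GC content and length. With the offset RN7SL1 remains between 0.37 and 0.95, while MALAT1 lies between -0.22 and -0.04 and RN7SL3 between -0.16 and 0.39.

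Other library measures were set beside the step between compound and DMSO libraries, and the summed levels of cell type markers overlapped between them. Genes up to 400 bases other than the 8 and SNORD3A took 0.275% to 0.348% of the reads in compound libraries and 0.353% and 0.360% in DMSO libraries. This was the opposite order to RN7SL1, but it holds only for the share without SNORD3A, which was named after its values were seen. SNORD3A lay at 160 CPM (Ly-294002 2) to 1900 CPM (Rottlerin 1) in compound libraries and at 530 and 197 CPM in DMSO libraries. The summed levels of 15 islet markers were 81.5 to 472 CPM in compound libraries and 267 and 159 CPM in DMSO libraries. Those of 12 mesenchyme markers were 1834 to 3761 CPM and 2959.9 and 2807 CPM, those of 13 liver and gut markers 6195 to 11684 CPM and 8474 and 6793 CPM, and those of 7 duct markers 813 to 1138 CPM and 851 and 946 CPM, again with the compound libraries first. The sums of 5 endothelial markers were 2.45 to 7.27 CPM in compound libraries and 6.44 and 8.17 CPM in DMSO libraries. These sums are carried by the most abundant genes of each list, and medians of the log2 changes over single markers stand beside them. The mesenchyme median was -0.82 in colchicine (12 of 12 below 0, 6 with an unadjusted p under 0.05), -0.77 in moxifloxacin (11 of 12, 7), -0.70 in rottlerin (11 of 12, 5) and -0.46 in vardenafil (11 of 12, 3), and between -0.10 and 0.14 in epirizole, Ly-294002 and rimonabant. The liver and gut median lay between 0.07 in rimonabant and 0.46 in rottlerin, where 12 of 13 were above 0 and 7 had an unadjusted p under 0.05. Such a p was found for 17.5% of all tested genes in colchicine, 11.9% in moxifloxacin, 14.8% in rottlerin and 5.22% in vardenafil. The median change of all tested genes was -0.011, -0.0061, -0.0045 and -0.00038 in that order. KDR, an endothelial growth factor receptor, was at -2.76 in colchicine, -2.45 in moxifloxacin, -2.16 in rottlerin, -1.59 in vardenafil and -1.24 in rimonabant. TEK, another endothelial receptor, was at -1.70, -1.83, -1.26, -0.89 and 0.15 in the same order, and none of these passed. The endothelial list did not fall as a whole. Its median was 0.06, -0.80, 0.07, 0.18 and 0.15 in that order, with 3, 2, 3, 3 and 4 of 5 markers above 0. PECAM1, of the same list, was at 0.56, 0.77, 1.74, 0.56 and 0.10. The part of the GC slope, of the mitochondrial share and of cell type markers in the changes of RN7SL1 and MALAT1 was not tested beyond the offset above.

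Across the 16 libraries RN7SL1 was low where MALAT1 was high. Of the 10 pairs among the 5 RNAs, this was the one relation that passed adjustment (Pearson r -0.71, permutation p = 0.0023, adjusted over 10 pairs 0.023; Spearman rho -0.73, permutation p = 0.00203, adjusted 0.0203). Without DMSO 2 and Rimonabant 2, the libraries farthest from the median of MALAT1, r was -0.75. On deviations from the group means r was -0.22, so that the relation ran between groups more than within them. The permutations took the 16 libraries as separate units, though they form 8 groups of 2. The permutation p-values given here may therefore be too small. MALAT1 and NEAT1 showed the reverse, with r 0.55 over all libraries (permutation p = 0.0274, adjusted 0.0914; rho 0.56, permutation p = 0.0273, adjusted 0.136), 0.39 without DMSO 2 and Rimonabant 2, and 0.93 on deviations from the group means. In all 8 pairs of replicates the library with more MALAT1 had more NEAT1, as did 0.91% of the tested genes. RN7SL1 and RN7SL3 had r 0.59 (permutation p = 0.0154, adjusted 0.0769; rho 0.50, permutation p = 0.052, adjusted 0.173), which was 0.30 without the 2 DMSO libraries. The other 7 pairs had r between -0.26 and 0.38 and adjusted permutation p of 0.37 to 0.863. All levels are shares of 1 library total, on which RNAs as abundant as these weigh.

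**Figure D4:**
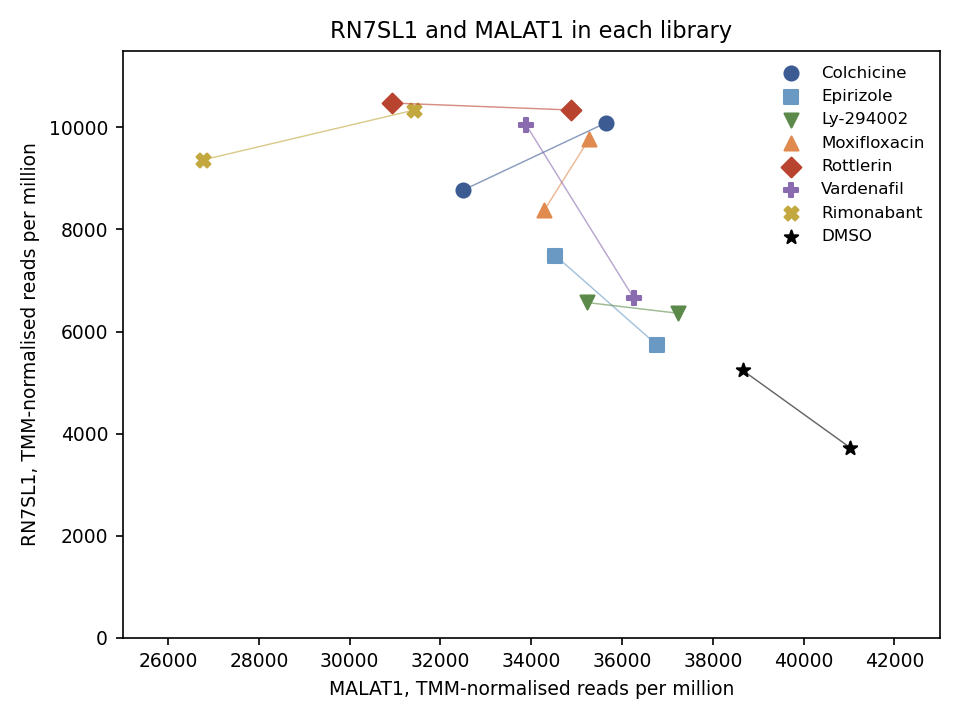
RN7SL1 (y axis) against MALAT1 (x axis, not from 0) in TMM-normalised CPM; each point is a library and lines join the 2 libraries of a group. The DMSO libraries have the most MALAT1, 38658 and 41032, and the least RN7SL1, and Rimonabant 2 has the least MALAT1, 26775.

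Genes whose levels ran most like each RNA were sought among 17567 others, by Pearson r of log2 TMM-normalised CPM over the 16 libraries. Values so picked from many are high by selection and carry no test. For MALAT1 they were USP34, a deubiquitinase (r 0.96), ZFYVE16, a protein of endosomes (0.96), and RSF1, a subunit of a chromatin remodeller (0.96), long transcripts of 11461 to 18125 exonic bases with GC contents of 35.7% to 40.4%. For NEAT1 they were the growth factor gene BMP2 (0.90), LINC02035 (0.90) and NTRK2, a neurotrophin receptor (0.90). For RN7SL1 they were TMEM256 (0.93), UQCRQ, a subunit of respiratory complex III (0.91), and PDCD6, a calcium-binding protein (0.91), with GC contents of 50.5% to 54.2%. RN7SL3 was most like the 7SL pseudogene RN7SL4P (0.86), then RNA5SP195 (0.80) and TXNL4A (0.79), and RMRP most like MIR3609 (0.84), GTF2IP1 (0.83) and PFN2, a profilin (0.83). RN7SL1 and RN7SL3 shared none of their 3 nearest genes.

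Protein partners of these RNAs were followed in lists, drawn up with earlier results known. Each gene was tested singly, and no list was tested as a set. No gene of these lists was called outside rimonabant. Of 8 proteins of the signal recognition particle and its receptor, 0 were higher and 2 lower in rimonabant, where 5.03% of all genes were called higher and 2.77% lower. They were SRP54, which binds the signal peptide (-0.38, adjusted p = 0.0249, edgeR), and SRP72 (-0.34, adjusted p = 0.0326). The median of the 8 was -0.21, against 0.00 for all genes, while RN7SL1 of the same particle was higher. In the other comparisons the median of the 8 lay between -0.11 in vardenafil and -0.03 in moxifloxacin.

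Partners of the remaining RNAs were also called in rimonabant alone, where 7.8% of all tested genes were called, 5.03% higher and 2.77% lower. Of 7 proteins that bind 7SK or form P-TEFb, 1 was lower, CCNT2, a cyclin of P-TEFb (-0.44, adjusted p = 0.0237, edgeR). None of 11 proteins of RNase P and RNase MRP, led in level by RPP30 at 14.2 to 20.3 CPM and RPP14 at 11.2 to 13.8 CPM, was called by edgeR, and 2 had an unadjusted p under 0.05, as had 24.8% of all tested genes. Of 12 paraspeckle proteins, SMARCA4, a chromatin remodeller, was higher (0.37, adjusted p = 0.0199, edgeR), and HNRNPH3 (-0.53, 0.0143) and CPSF6 (-0.30, 0.0326) were lower. Of 11 proteins of nuclear speckles and of MALAT1 and NEAT1 processing, HNRNPC was lower (-0.28, adjusted p = 0.0466, edgeR). Of 30 subunits and factors of RNA polymerase III, 4 were higher and 2 lower. SNAPC4 (0.60, adjusted p = 0.0297, edgeR) was among the higher, and BDP1 (-0.42, 0.0289) fell, as did SNAPC3.

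Related RNAs were called in rimonabant alone, where 2.77% of all tested genes were called lower. Of 14 other small structural RNAs tested, SCARNA7, a guide RNA of Cajal bodies (-0.75, adjusted p = 0.0122, edgeR), and RNU4-2, a U4 spliceosomal RNA (-1.37, 0.0397), were lower in rimonabant, and the list's median was -0.58 against 0.00 for all genes. Its median was also below 0 in the other comparisons, at -0.65 in rottlerin, -0.55 in colchicine, -0.37 in Ly-294002, -0.32 in epirizole, -0.24 in vardenafil and -0.20 in moxifloxacin, with 0 calls in each. An unadjusted p under 0.05 was found, in the same order, for 7, 5, 3, 2, 1 and 5 of the 14. Such a p was found for 14.8%, 17.5%, 4.69%, 5.26%, 5.22% and 11.9% of all tested genes in that order. Of 19 other nuclear or abundant long noncoding RNAs, JPX was lower in rimonabant (-0.34, adjusted p = 0.0294, edgeR), with a median of -0.16. Of 13 replication-dependent histone genes, led in level by H4C5 and H1-2, none was called in any comparison, and their median ran from -0.28 in moxifloxacin to 0.26 in rimonabant. The 2 tested remnants of mitochondrial ribosomal RNA, MT-RNR1 and MT-RNR2, ranged from 2.61 to 70.0 and from 5.49 to 147 CPM and were not called.

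Markers of cell types gave 3 calls, all higher in rimonabant, where 5.03% of all tested genes were called higher. They were KRT19 (0.37, adjusted p = 0.0384, edgeR) and KRT7 (0.99, 0.0456) of 7 duct markers and APOA1 (0.90, 0.0259) of 13 liver and gut markers. None of 13 tested islet markers, in which CHGA and PDX1 were highest at 31.6 to 315 and 22.6 to 53.1 CPM, of 12 mesenchyme markers, led by COL3A1 and VIM, or of 5 endothelial markers, led by KDR and TEK, was called in any comparison. All calls on list genes in rimonabant were lost with the GC and length offset and without DMSO 1, DMSO 2 or Rimonabant 2, where 0 genes were called, and 3833 were called without Rimonabant 1 (edgeR).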

How the data were processed

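Total RNA of planar cultures was sequenced as 16 ribosome-depleted libraries (KAPA RNA HyperPrep with RiboErase, paired ends). Per the labels' protocols, STAR 2.7.1a aligned the reads after quality control (FastQC 0.11.8) and trimming (Trimmomatic 0.38), Picard 2.20.4 marked duplicates, and StringTie 2.0.4 assembled transcripts. Counting was done with featureCounts 1.6.0 or HTSeq per the labels' protocols, while HTSeq and GRCh38 stand in the submitters' processing notes. Strand setting, annotation release and the handling of multiply mapped reads are not given in the sources used here. The authors deposited raw counts of reads per gene, not normalised, for 62754 genes.

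Here, genes were kept by filterByExpr (24515, holding 99.92% of reads), scaled by TMM factors and fitted in edgeR 4.0.16 (R 4.3.3), all 16 libraries in 1 model of 8 groups with 8 residual degrees of freedom and a common biological coefficient of variation of 0.1652. Each compound was tested against DMSO by the robust two-sided quasi-likelihood F test, with p-values adjusted over all tested genes (Benjamini-Hochberg, threshold 0.05). The fit was tested on simulated counts. Relations between RNAs used 100000 permutations, two-sided, over 10 pairs, not the 28 planned, since 3 of the 8 RNAs had no reads. Coordinates, gene models, GC content and the sequences compared came from GENCODE 29 (GRCh38), and sequences were aligned with Biopython 1.88. Some items are not reported here. No 2 libraries were so alike that they had to be counted as 1 (highest correlation of log2 counts 0.9836).

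Alternatives were other scalings, no filter, DESeq2 1.42.0, a replicate block, an offset for GC content and length, the 2 groups compared alone, and each replicate left out. The GC-only offset was chosen after seeing the data. The RNAs and the 15 other gene lists were chosen with earlier results of these data known. Named were the 8 RNAs, the 3 genes most like each detected one, and of each list up to 4 called genes with the smallest p or, where none was called, the 2 with the highest level. TALAM1, RN7SL and RN7SK pseudogenes and SNORD3A were named after their values were seen.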

Additional observations from a re-analysis of the deposited data

How the results depend on the processing

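RN7SL1 stayed above 0 and MALAT1 below 0 in all 91 alternative values each, over 7 comparisons. Direction reversed in 12 of 91 values of NEAT1, 14 of RMRP and 4 of RN7SL3, none of them called in the fit as reported. With the GC and length offset, RN7SL3 was -0.050 in colchicine and -0.16 in rimonabant, RMRP -0.15 in colchicine, -0.18 in epirizole, -0.21 in moxifloxacin and -0.035 in vardenafil, and NEAT1 0.11 in moxifloxacin and 0.017 in rimonabant. The GC offset alone gave RN7SL3 -0.041 in colchicine and -0.15 in rimonabant, RMRP -0.14 in colchicine, -0.16 in epirizole and -0.17 in moxifloxacin, and NEAT1 0.078 in moxifloxacin, which was 0.0078 with library totals only. Leaving out 1 replicate, NEAT1 ranged from -0.18 to 0.20 in colchicine, -0.012 to 0.12 in epirizole, -0.085 to 0.054 in moxifloxacin, -0.22 to 0.32 in rottlerin and -0.076 to 0.14 in vardenafil. RMRP ranged from -0.053 to 0.26 in colchicine, -0.13 to 0.18 in epirizole, -0.088 to 0.23 in moxifloxacin, -0.28 to 0.036 in rottlerin and -0.80 to 0.016 in rimonabant.

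Of the 5 RNAs, 2 were called in rimonabant as reported, against 0 with either offset, 1 when only the 2 groups compared were fitted, 4 with no filter and 0 to 3 with 1 replicate left out. In the 6 comparisons with 0 calls, DESeq2 gave 1 each in colchicine, moxifloxacin, rottlerin and vardenafil, and DESeq2 size factors in edgeR gave 1 in colchicine. With no filter on low counts, 2 were called in colchicine, 1 in epirizole, 1 in Ly-294002, 2 in moxifloxacin, 3 in rottlerin and 2 in vardenafil. All genes called with no filter are counted below for these 6 comparisons. That count is not given here for rimonabant, so the 4 there has no share of all genes beside it and cannot be read against one. Without the filter the test of RN7SL1 had 357512 degrees of freedom, against 11.9 with it, so that its spread was that of the common trend, and its SE in rimonabant was 0.08 against 0.20.

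Over all genes, colchicine called 48, rottlerin 2 and rimonabant 1913. With no filter the counts were 1568 in colchicine, 33 in epirizole, 169 in Ly-294002, 742 in moxifloxacin, 1076 in rottlerin and 113 in vardenafil. DESeq2 called 904 in colchicine, 58 in moxifloxacin, 656 in rottlerin and 2 in vardenafil. DESeq2 size factors gave 150 and library totals 83 in colchicine, and library totals 5 in rottlerin. Either offset left 0 in rottlerin and rimonabant, and the GC offset alone 1 in colchicine. With only the 2 groups compared the counts were 134 in colchicine, 1 in Ly-294002, 5 in moxifloxacin, 1 in rottlerin, 3 in vardenafil and 42 in rimonabant. With 1 replicate left out they were 1 to 2 in colchicine, 0 to 43 in rottlerin and 0 to 3833 in rimonabant; a lone library was then assumed to vary like the other groups.

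With the replicate number as a block, RN7SL1 was also called in colchicine (1.09, adjusted p = 0.0139, edgeR) and rottlerin (1.24, 0.00635), 1 of the 5 RNAs in each, beside 2 in rimonabant, and 5 genes were called in colchicine and 1090 in rimonabant. The count of all genes in rottlerin with this block is not given here, so the call there has no share beside it. The numbers were not taken as pairs, since replicate differences correlated between -0.28 and 0.23 over the 28 pairs of groups, and only 5 were over 0.1. The cause of these shifts was not tested. With 2 libraries a group, the spread rests on pooling all groups, and counts say nothing on RNAs below the floor or on reads shared between near copies.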

Other observations

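SNORD3A, a gene of the U3 small nucleolar RNA, which guides cleavage of the ribosomal RNA precursor, was the most abundant of the other small structural RNAs, and it was picked after its values were seen. It had 1072 and 1247 TMM-normalised CPM in colchicine, 1116 and 417 in epirizole, 411 and 159 in Ly-294002, 1458 and 1331 in moxifloxacin, 1851 and 1129.7 in rottlerin, 1316 and 652 in vardenafil, and 1068 and 909 in rimonabant, against 539 and 199.9 in DMSO. Ly-294002 and epirizole overlapped with DMSO, and the other 5 compounds lay above it. The same held for 24.5% of tested genes in colchicine, 23.2% in moxifloxacin, 23.6% in rottlerin, 19.4% in vardenafil and 26.8% in rimonabant. The log2 changes were 2.01 ± 0.67 in rottlerin, 1.92 ± 0.67 in moxifloxacin, 1.65 ± 0.66 in colchicine, 1.42 ± 0.66 in rimonabant, 1.41 ± 0.66 in vardenafil, 1.05 ± 0.66 in epirizole and -0.37 ± 0.65 in Ly-294002 (SE), and none passed (lowest adjusted p 0.215 in rottlerin, edgeR). Epirizole and Ly-294002 were also the compounds with the lowest RN7SL1. Other U3 gene copies can share reads with SNORD3A, so its counts are uncertain.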
